A study of Mus musculus with 12 samples.

Results

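The MYC-MAX-MLX network is a family of transcription factors that bind DNA as pairs, and the 9 mouse genes described here are Myc, Mycn, Max, Mxd1, Mxd3, Mxd4, Mxi1, Mnt and Mlx. They were found by matching the gene identifiers of the deposited tables to mouse gene symbols, which gave all 9 of 9 names among 55401 gene identifiers. Enough reads for a test were counted for 8 of the 9 (16426 genes were tested in all), and Mycn was the exception.

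RNA was measured by bulk sequencing in 12 libraries of OT-I T cells, 3 in each of 4 groups. All groups share the OT-I genotype, a transgenic T cell receptor that recognises an ovalbumin peptide. The naive group was taken from lymph nodes of OT-I mice that carried no tumour (day 0 in the labels), and the effector group had been stimulated with antigen for 5 days in culture. The day 4 and day 14 tumour groups, labelled exhausted, are CD44+ OT-I cells that had been transferred into C57BL/6J mice bearing B78ChOVA melanomas and were sorted out of the tumours that many days later. The labels give no age of the mice, no batch, and do not say whether replicates came from separate animals or cultures, so p-values measure the spread between these libraries, which may be technical. Gene counts per library ran from 11937053 to 17094006.

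MAX is the shared partner of the network. MYC and MYCN pair with it to activate genes for growth, ribosome building and metabolism, and in T cells MYC rises after antigen recognition and drives the growth that precedes division. MXD1, MXI1 (also called MXD2), MXD3, MXD4 and MNT compete for the same partner and the same DNA word, the E-box CACGTG, and bring in SIN3 and histone deacetylases to repress. MLX is a parallel partner: it pairs with the glucose-sensing factors MLXIP and MLXIPL and can also bind MXD1, MXD4 and MNT. MXD proteins are best known from cells that leave the cycle and mature, except MXD3, which is known from S phase.

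RefSeq promoter windows of 250 bases before a start site (GRCm38.p6) were given for 8 of the 9 genes, in 10 windows, with none for Myc. The E-box letters CACGTG, which read the same on both strands, were found in 3 of the windows, those of Mxd4, Mnt and Mlx. Over all 32851 promoter windows of this length, 1978 (6.02%) held them. The windows of Max, Mxd1, Mxd3, Mxi1 and Mycn held none. The 3 promoters that hold the word are shown, 5′ to 3′ on the gene's strand and trimmed to bases outside annotated exons. The capitals mark the E-box.
Mxd4, chr5:34187721-34187960, minus strand: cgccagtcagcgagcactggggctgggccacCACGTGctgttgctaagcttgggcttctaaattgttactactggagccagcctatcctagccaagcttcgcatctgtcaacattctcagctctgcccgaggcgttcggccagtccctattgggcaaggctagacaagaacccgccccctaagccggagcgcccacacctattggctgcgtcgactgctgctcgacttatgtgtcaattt
Mnt, chr11:74830674-74830919, plus strand: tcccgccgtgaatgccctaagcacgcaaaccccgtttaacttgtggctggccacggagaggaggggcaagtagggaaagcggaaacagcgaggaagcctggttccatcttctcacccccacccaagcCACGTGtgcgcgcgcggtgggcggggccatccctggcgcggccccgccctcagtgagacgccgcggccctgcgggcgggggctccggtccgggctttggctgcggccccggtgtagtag
Mlx, chr11:101087040-101087276, plus strand: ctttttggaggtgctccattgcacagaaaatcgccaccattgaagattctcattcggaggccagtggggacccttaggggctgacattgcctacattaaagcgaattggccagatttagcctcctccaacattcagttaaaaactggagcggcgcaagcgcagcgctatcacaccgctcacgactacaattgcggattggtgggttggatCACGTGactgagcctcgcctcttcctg
The E-box lay 219 to 214 bases before the start of Mxd4, 123 to 118 before that of Mnt and 40 to 35 before that of Mlx. It is a match of letters only, and binding was not measured.

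Cell identity and the libraries that stood apart were checked first, since they touch several results. All 8 CD8 T cell markers had counts in every group, and their summed level was 3049 to 6091 CPM, gene counts scaled by TMM to a common library size. By group the sum was 4538 to 5047 in naive, 5649 to 6091 in effector, 3049 to 3651 on day 4 and 4205 to 4375 on day 14. The markers did not move alike. Cd8b1 averaged 894, 1164, 310 and 381 CPM in that order, Lck 557, 600, 356 and 394, and Cd8a 1148, 1521, 1029 and 1307. The libraries labelled effector kept the 4 naive T cell markers at 2759 to 4372 CPM, against 4040 to 4095 in naive cells, 836 to 1039 on day 4 and 130 to 274 on day 14. Effector replicate 2 stood apart from the other two: its 8 cycling-cell markers summed to 969 CPM, against 108 and 166, and against 80.6 to 258 in naive and 3354 to 4332 in tumour libraries. The 8 melanoma markers summed to 26.3 to 32.8 CPM in naive and 36.8 to 42.4 in effector libraries, where Tyr, Tyrp1 and Sox10 were at 0, to 687 to 1030 on day 4, and to 1659, 694 and 426 in day 14 replicates 1, 2 and 3. The 12 macrophage markers summed to 14.5 to 27.6, 6.19 to 10.1, 64.7 to 136 and 67.1 to 121 CPM in the same order of groups, with C1qa, C1qb, C1qc, Fcgr1 and Cd14 at 0 in effector libraries, and all 4 neutrophil markers were at 0 on day 14. The 6 dendritic cell markers summed to 4.75 to 5.73, 2.71 to 7.05, 30.1 to 49.1 and 28.6 to 40.3 CPM, with Clec9a, Siglech and Cd209a at 0 in effector libraries. The 5 fibroblast markers summed to 0.230 to 1.33, 0.258 to 1.083, 1.25 to 23.1 and 6.998 to 17.9 CPM, with Pdgfra at 0 in naive and effector libraries. Summed melanoma, macrophage and dendritic cell markers were therefore higher in every tumour library than in naive and effector ones. The fibroblast sum was higher in all tumour libraries but day 4 replicate 1. Not every marker followed its sum. The macrophage rise was mostly Apoe (mean 4.26 CPM in naive, 45.1 on day 4, 44.4 on day 14). Lyz2 and C1q genes were also higher on average, while Csf1r stood at 2.33, 2.15 and 1.72. The dendritic cell rise was mostly Zbtb46 (4.52, 36.0, 20.1) and Xcr1 (0.336, 4.71, 11.2). The part of these markers in the differences below was not tested. In bulk RNA, fewer cells of a type and less RNA per cell cannot be told apart.

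On day 14, Myc RNA was lower than in naive and day 4 cells, while RNA of 3 of its antagonists, Mxd1, Mxi1 and Mxd4, was higher than in both. Against effector cells, Mxd1 and Mxi1 passed the test on day 14 and Myc and Mxd4 did not. Mxd1 showed the largest gain apart from the scarce Mxd3, from 20.7 ± 3.21 CPM (SD, n = 3) in naive cells to 126 ± 23.3 on day 14. Max RNA varied least in proportion among the called genes, and Mlx RNA passed no test in the fit of all 12 libraries with TMM scaling. In a joint test of the 4 groups (edgeR quasi-likelihood test, Benjamini-Hochberg adjustment over all genes, called at an adjusted p under 0.05), 6 of the 8 tested genes differed: Myc, Max, Mxd1, Mxd4, Mxi1 and Mnt. Among all tested genes 74.8% were called in the same way, so the share in the network is near the background.

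**Figure D1:**
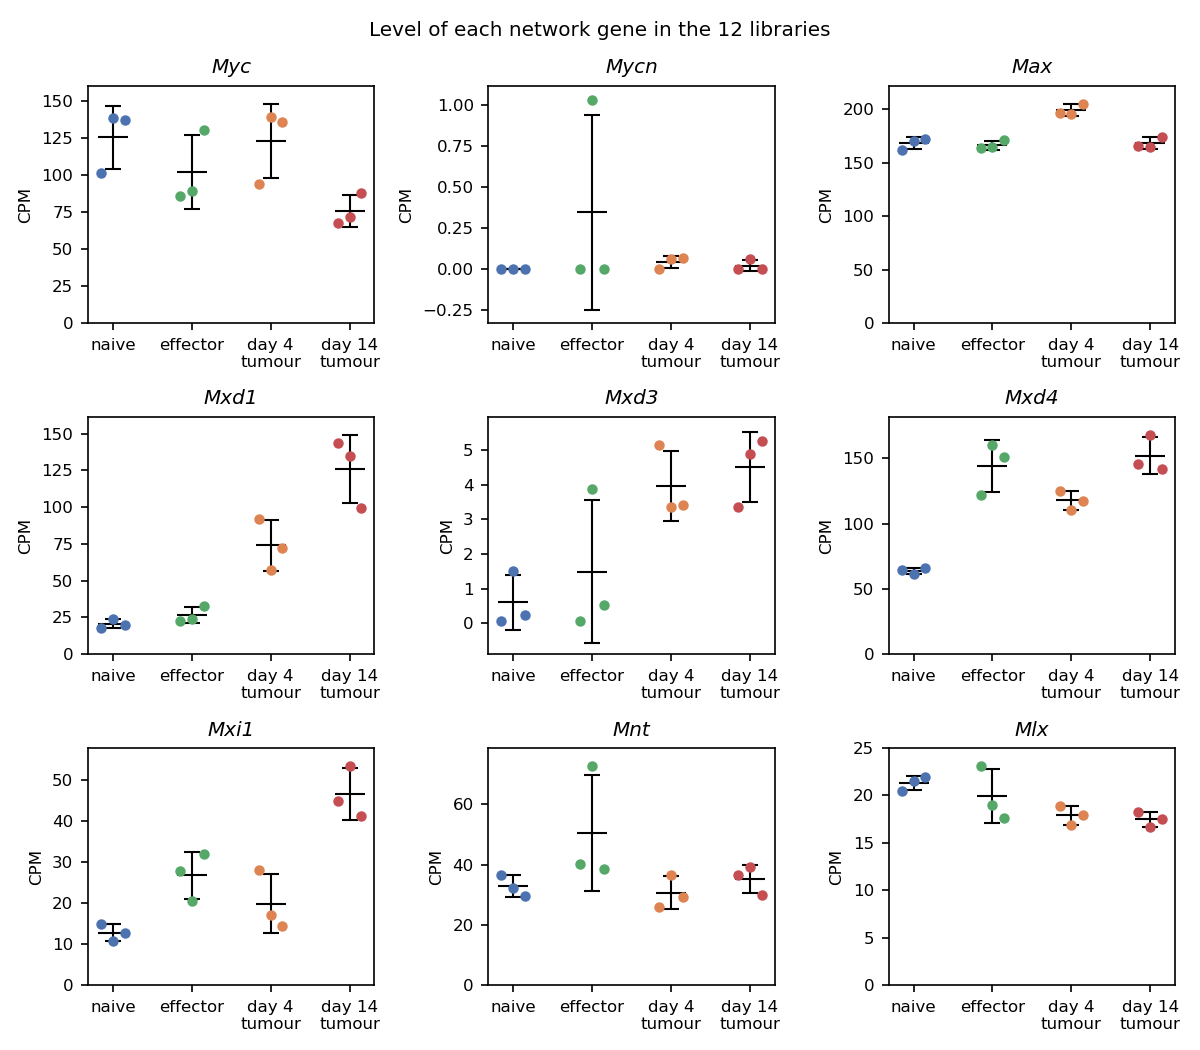
CPM of each of the 9 genes (linear vertical axes, one scale per gene) in the 3 libraries of each group; points are libraries and the bars give the mean and SD. Mxd1 and Mxi1 are highest on day 14, where the mean of Myc is lowest at 75.6 ± 10.6 CPM, and Mxd4 is level in effector and day 14 cells.

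Myc (ENSMUSG00000022346.16, chr15:61985391-61990374, GRCm38, plus strand) encodes the activator that gives the network its name. Its levels were 101, 139 and 137 CPM in naive replicates 1, 2 and 3, and 85.9, 88.9 and 130.4 CPM in effector replicates. They were 93.9, 139 and 135 CPM on day 4, and 67.3, 71.8 and 87.5 CPM on day 14. Every day 14 library lay below every naive and every day 4 library, whereas the effector range overlapped with all other groups. The library numbered 1 held the lowest value in each of the 4 groups.

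Day 14 Myc was lower than naive by a log2 fold change of -0.73 (SE 0.20, edgeR adjusted p = 0.00654), a ratio of mean levels of 0.602. It was also lower than on day 4, by -0.70 (SE 0.20, edgeR adjusted p = 0.0379). The second call was lost when naive replicate 3, day 4 replicate 2 or 3, or day 14 replicate 1 or 2 was left out, with adjusted p from 0.0511 to 0.133 and log2 fold changes from -0.71 to -0.62. Against effector cells day 14 Myc stood at -0.43 (SE 0.20), which was not called (edgeR adjusted p = 0.0788), but was without day 4 replicate 1 (adjusted p = 0.0496) and with no filter (adjusted p = 0.00350). Day 4 against effector gave 0.27 (SE 0.20, edgeR adjusted p = 0.249), called without effector replicate 3 (0.55, adjusted p = 0.0217) and with no filter (0.32, adjusted p = 0.0209). Day 4 differed from naive by -0.03 (SE 0.20, edgeR adjusted p = 0.909) and effector from naive by -0.30 (SE 0.20, edgeR adjusted p = 0.303), the latter called with no filter (-0.32, adjusted p = 0.0463).

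Mycn (ENSMUSG00000037169.15, chr12:12936093-12941914), the paralogue known from neural and early progenitor cells, was nearly silent. Effector replicate 2 held 12 counts (1.03 CPM), day 4 replicates 2 and 3 and day 14 replicate 2 held 1 count each, and the 8 other libraries held 0. A count of 0 allows up to 3 counts, or 0.182 to 0.239 CPM over those 8 libraries, for counting error only. The 12 counts came from the library whose cycling markers stood apart.

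Max (ENSMUSG00000059436.13, chr12:76937269-76962201) encodes the partner that MYC and its antagonists share. It was measured at 162, 171 and 172 CPM in naive, 163, 164 and 171 in effector, 196, 195 and 205 on day 4, and 165, 164 and 174 on day 14. The day 4 libraries were the highest in all 3 comparisons, with no overlap. Max was higher on day 4 than in naive cells by a log2 fold change of 0.24 (SE 0.07, edgeR adjusted p = 0.00913) and than in effector cells by 0.26 (SE 0.07, edgeR adjusted p = 0.00596). From day 4 to day 14 it fell by 0.24 (SE 0.07, edgeR adjusted p = 0.0396), a call that was lost without day 14 replicate 1 or 2, without any 1 of the 3 day 4 libraries or without naive replicate 2 (adjusted p 0.0542 to 0.108). It was also lost with no filter on low counts (adjusted p = 0.127) and when the 2 tumour groups were fitted by themselves (adjusted p = 0.0631).

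Mxd1 (ENSMUSG00000001156.9, chr6:86647042-86669161), one of the first MAX-binding repressors described, had the largest change of any member but the scarce Mxd3. Naive libraries held 17.8, 24.1 and 20.1 CPM and effector libraries 22.6, 23.9 and 32.7 CPM. Day 4 libraries held 92.1, 57.3 and 72.2 CPM, and day 14 libraries 144, 135 and 99.7 CPM. All 6 tumour libraries exceeded all 6 others, and the 3 day 14 libraries exceeded the 3 of day 4. The rise over naive was 1.84 on day 4 (SE 0.20, edgeR adjusted p = 4.07e-06) and 2.61 on day 14 (SE 0.21, edgeR adjusted p = 1.64e-07) on the log2 scale, a ratio of means of 3.57 and 6.10. Over effector cells it was 1.48 on day 4 (SE 0.20, edgeR adjusted p = 2.55e-05) and 2.25 on day 14 (SE 0.20, edgeR adjusted p = 5.98e-07). Day 14 exceeded day 4 by 0.77 (SE 0.19, edgeR adjusted p = 0.0187). That last call was lost without day 4 replicate 2 or 3 or day 14 replicate 1 or 2, at adjusted p from 0.0654 to 0.0726. Effector cells differed from naive by 0.35 (SE 0.21), not called (edgeR adjusted p = 0.238).

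Mxi1 (ENSMUSG00000025025.14, chr19:53310518-53375810) rose in culture, was lower again on day 4 and was highest on day 14. Naive libraries held 14.9, 10.7 and 12.7 CPM, effector libraries 27.7, 20.6 and 31.9, day 4 libraries 28.1, 17.1 and 14.4, and day 14 libraries 44.7, 53.4 and 41.2. All 3 day 14 libraries lay above the 9 others, and day 4 overlapped with both naive and effector cells. Effector exceeded naive by a log2 fold change of 1.07 (SE 0.23, edgeR adjusted p = 0.00366) and day 14 exceeded naive by 1.86 (SE 0.23, edgeR adjusted p = 6.04e-06). Day 14 exceeded day 4 by 1.23 (SE 0.23, edgeR adjusted p = 0.00204), and this call held under all 19 alternatives. Day 4 exceeded naive by 0.63 (SE 0.23, edgeR adjusted p = 0.0279), which was lost without day 4 replicate 1 (0.32, adjusted p = 0.189) and without naive replicate 2 or 3 (adjusted p = 0.0958 and 0.0604). The difference between day 4 and effector cells, -0.43, was not called (edgeR adjusted p = 0.112), although without day 4 replicate 1 it was (-0.75, adjusted p = 0.00485), and without effector replicate 2 (-0.59, adjusted p = 0.0398). Day 14 exceeded effector by 0.80 (SE 0.23, edgeR adjusted p = 0.00637).

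Mxd4 (ENSMUSG00000037235.13, chr5:34173883-34187720), known from resting and mature cells, was higher in the effector, day 4 and day 14 groups than in naive cells. Naive libraries held 64.1, 61.0 and 65.9 CPM, against 122, 159.8 and 151 in effector, 125, 111 and 117 on day 4 and 146, 168 and 142 on day 14. The naive range was not met by any other library, and effector cells overlapped with both tumour groups. The log2 fold changes over naive were 1.18 in effector (SE 0.11, edgeR adjusted p = 1.20e-06), 0.89 on day 4 (SE 0.11, edgeR adjusted p = 2.14e-06) and 1.25 on day 14 (SE 0.11, edgeR adjusted p = 4.19e-08). Day 14 exceeded day 4 by 0.37 (SE 0.10, edgeR adjusted p = 0.0286), and without day 4 replicate 2 or 3 or day 14 replicate 1 or 2 the adjusted p rose to between 0.0513 and 0.173. Day 4 was lower than effector by -0.29 (SE 0.10, edgeR adjusted p = 0.0225), a call absent with RLE size factors (adjusted p = 0.0552), total-count scaling (0.0961), no filter (0.0619) and DESeq2 (0.0623), and absent when any 1 of 5 libraries was missing, namely replicates 2 and 3 of effector, replicates 2 and 3 of day 4, and replicate 1 of day 14 (0.0611 to 0.170). Of the exon bases of Mxd4, 6.1% overlap Gm42846 on the other strand. In unstranded counts, reads there that fit both genes stand as ambiguous and were not counted for Mxd4.

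Mxd3 (ENSMUSG00000021485.14, chr13:55325168-55329823), the S-phase member, was the scarcest of the tested genes. Naive libraries held 0.0739, 1.51 and 0.230 CPM and effector libraries 0.0719, 3.87 and 0.542. Day 4 libraries held 5.13, 3.36 and 3.41 CPM and day 14 libraries 3.37, 4.88 and 5.27. Within naive and within effector cells, replicate 2 was the highest, and it also held the most cycling-marker RNA in each, 258 and 969 CPM. Mxd3 exceeded naive by 2.71 on day 4 (SE 1.04, edgeR adjusted p = 0.0395) and by 2.90 on day 14 (SE 1.03, edgeR adjusted p = 0.0296). It held 1, 19 and 3 counts in naive and 1, 45 and 7 in effector replicates. It therefore passed the filter on low counts only through the tumour libraries, where it was high. Its calls in the tumour groups are not independent of that filter. The day 4 call was lost without naive replicate 1 or 3, or without any 1 of the 6 tumour libraries (adjusted p 0.0533 to 0.123), and the day 14 call without naive replicate 1 or 3 or day 14 replicate 2 or 3 (adjusted p 0.0603 to 0.0993). Effector cells differed from naive by 1.28 (SE 1.09, not called, edgeR adjusted p = 0.440) with effector replicate 2 and by -0.96 without it. Leaving out that library also made both tumour groups exceed effector cells, by 3.68 on day 4 (edgeR adjusted p = 0.00220) and 3.87 on day 14 (edgeR adjusted p = 0.00155), where the full set gave 1.44 and 1.62, not called (edgeR adjusted p = 0.209 and 0.159).

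**Figure D2:**
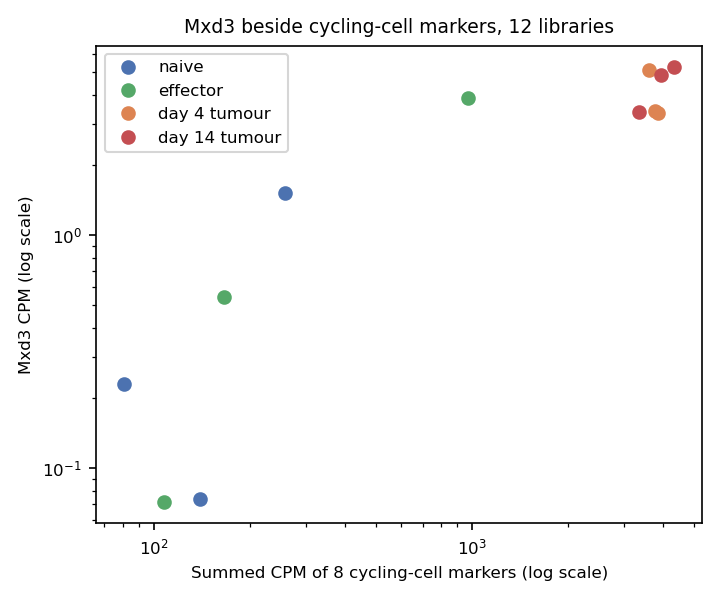
Mxd3 CPM against the summed CPM of 8 cycling-cell markers, both axes logarithmic, 1 point per library coloured by group. Tumour libraries sit together at 3354 to 4332 CPM of cycling markers, and effector replicate 2, at 969 CPM, lies between them and the other naive and effector libraries.

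Mnt (ENSMUSG00000000282.12, chr11:74830920-74845725) is the broadly expressed antagonist of MYC, and the one whose promoter carries the E-box 123 bases out. Its levels were 36.7, 32.3 and 29.5 CPM in naive, 40.0, 72.9 and 38.7 in effector, 25.9, 36.6 and 29.3 on day 4, and 36.5, 39.1 and 29.9 on day 14. Effector replicate 2 was again apart from its group mates, and the other 11 libraries lay between 25.9 and 40.0 CPM. Day 4 was lower than effector by -0.72 (SE 0.22, edgeR adjusted p = 0.0105), which became -0.36 (adjusted p = 0.0667) without effector replicate 2 and -0.64 (adjusted p = 0.0515) without day 4 replicate 3. Effector differed from naive by 0.62 (SE 0.22), just outside the threshold (edgeR adjusted p = 0.0521), and by 0.27 (adjusted p = 0.288) without effector replicate 2. The difference was called by DESeq2 (0.60, adjusted p = 0.0305), with no filter (0.60, adjusted p = 0.000497), and without effector replicate 1 or 3 or day 14 replicate 3 (adjusted p 0.0263 to 0.0487). Day 14 differed from effector by -0.52 (SE 0.22, not called, edgeR adjusted p = 0.0508), a value of -0.16 (adjusted p = 0.412) without effector replicate 2 and a call without effector replicate 1 or 3 (adjusted p = 0.0295 and 0.0211) and with no filter (-0.48, adjusted p = 0.00324).

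Mlx (ENSMUSG00000017801.15, chr11:101087277-101092207), the partner of the glucose-sensing branch, moved little: 20.5, 21.5 and 21.9 CPM in naive, 23.1, 19.0 and 17.6 in effector, 18.9, 16.9 and 18.0 on day 4 and 18.2, 16.6 and 17.6 on day 14. All 6 tumour libraries lay below the 3 naive ones. The log2 fold changes against naive were -0.25 on day 4 (SE 0.14, edgeR adjusted p = 0.142) and -0.28 on day 14 (SE 0.14, edgeR adjusted p = 0.0958), and neither was called. With total counts as scaling, day 14 was called lower (-0.36, adjusted p = 0.0382). An overlap with Psmc3ip on the opposite strand covers 385 of the exon bases of Mlx (19.3%), where ambiguous reads were likewise not counted, so its level may be too low.

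Counted by comparison, more of the network genes were called higher than lower in 5 of the 6 contrasts. Over all tested genes, higher calls also outnumbered lower ones in every contrast, at 52.8% to 59.4% of calls. In effector against naive cells 2 of 8 were called higher (Mxd4 and Mxi1) and 0 lower, while of all tested genes 14.6% were called higher and 10.4% lower. By edgeR at an unadjusted p under 0.05, 0 were lower too, and by DESeq2 0. That background split, with 58.4% of calls higher, turned to 38.1% higher with total counts as scaling, which moved the median of all genes to -0.10. Both members kept their calls without effector replicate 2. In day 4 against naive 5 were higher (Max, Mxd1, Mxd3, Mxd4, Mxi1) and 0 lower (0 at an unadjusted p under 0.05 and 0 by DESeq2), against 33.4% and 28.8% of all genes. In day 14 against naive 4 were higher (Mxd1, Mxd3, Mxd4, Mxi1) and 1 lower (Myc), against 33.6% and 28.5%. These 3 comparisons share the naive libraries, and Mxd3 passed the filter on low counts only through the tumour libraries.

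Against effector cells, day 4 had 2 higher (Max, Mxd1) and 2 lower (Mxd4, Mnt), where 32.7% and 29.2% of all genes were called. Day 14 had 2 higher (Mxd1, Mxi1) and 0 lower, against 32.6% and 28.4%. At an unadjusted p under 0.05 edgeR gave 1 lower, and DESeq2 gave 0. Between the tumour days 3 were higher on day 14 (Mxd1, Mxd4, Mxi1) and 2 lower (Myc, Max), in a comparison where only 7.17% of all genes were called higher and 4.91% lower. The median log2 fold change of the 8 tested genes there was 0.19, beside -0.0039 for all genes. Without day 14 replicate 1, the library with the most melanoma-marker RNA, the counts were 1 and 0, and the log2 fold changes of the 5 genes were -0.64 for Myc, -0.24 for Max, 0.66 for Mxd1, 0.39 for Mxd4 and 1.25 for Mxi1.

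**Figure D3:**
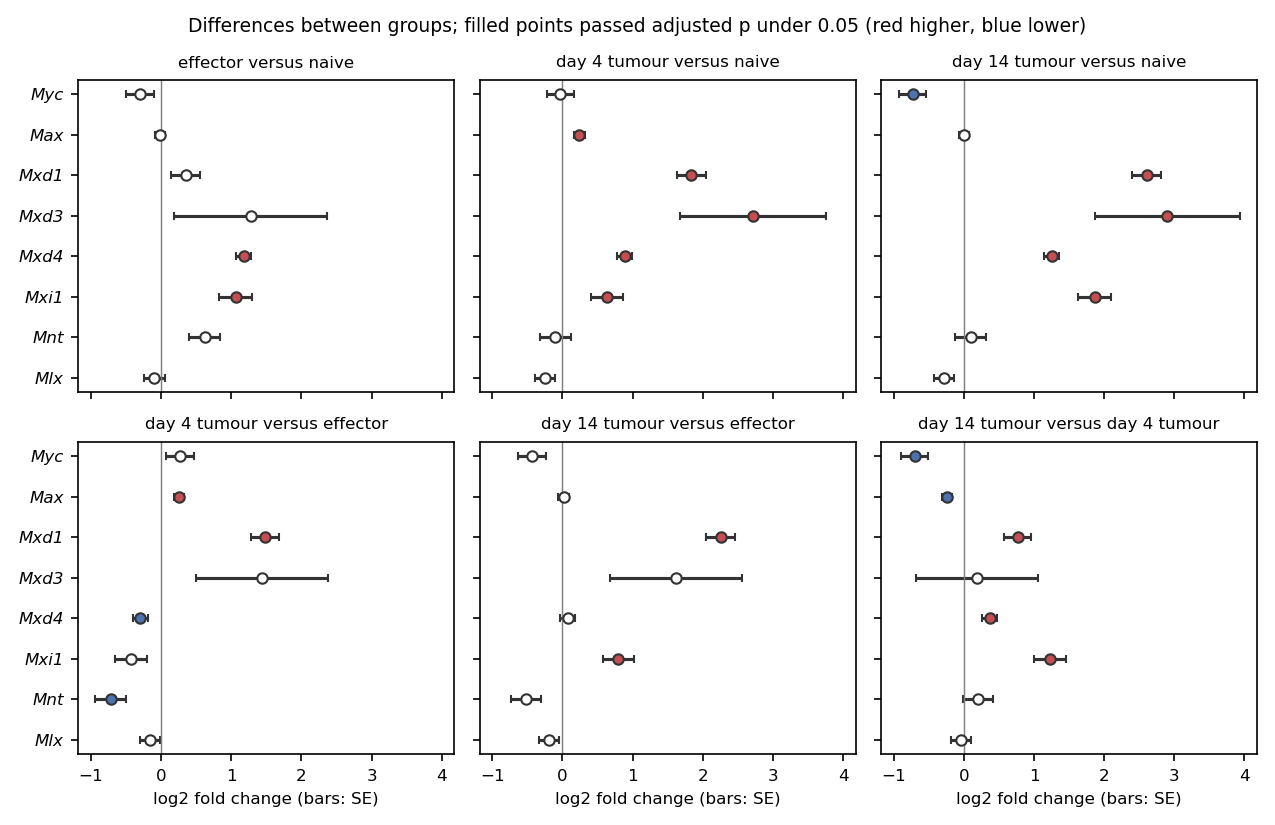
Log2 fold changes of the 8 tested genes in the 6 comparisons, with bars of 1 SE; filled points passed an adjusted p under 0.05 (red higher, blue lower) and open points did not. Mxd1 is filled red in 5 of the 6 panels, and Myc is filled blue in the panels of day 14 against naive and against day 4.

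Levels of different genes were compared per kilobase of merged exons. Max and Myc led in all 4 groups. In naive cells they stood at 46.7 ± 1.53 and 46.2 ± 7.82 CPM per kb (SD, n = 3), a gap within the spread, followed by Mlx (10.6 ± 0.368), Mxd4 (7.51 ± 0.292) and Mnt (7.09 ± 0.775), of which the latter pair did not differ beyond their spread. Below them came Mxd1 (2.92 ± 0.453), Mxi1 (1.87 ± 0.306), Mxd3 (0.256 ± 0.333) and Mycn at 0. On day 14 the order was Max (46.7 ± 1.53), Myc (27.8 ± 3.91), then Mxd4 (17.9 ± 1.68) and Mxd1 (17.8 ± 3.29) level with each other, Mlx (8.74 ± 0.398), Mnt (7.60 ± 1.02) and Mxi1 (6.81 ± 0.922) with spreads that overlapped between neighbours, and Mxd3 (1.90 ± 0.424). Mxd1 thus moved from the sixth place to the fourth. In effector cells Mxd4 (17.01 ± 2.33) held the third place and Mxi1 (3.91 ± 0.838) and Mxd1 (3.73 ± 0.780) were level. On day 4 Mxd4 (13.9 ± 0.846) held the third place, and Mxd1 (10.4 ± 2.46) and Mlx (8.95 ± 0.494) followed, level within their spread.

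The 5 MAX-binding antagonists (Mxd1, Mxd3, Mxd4, Mxi1 and Mnt) were summed per kilobase and set beside Myc in each library. Their sum was 19.6 ± 0.640 CPM per kb in naive cells, 36.2 ± 6.16 in effector, 35.5 ± 3.60 on day 4 and 52.0 ± 5.94 on day 14. The ratio of Myc to that sum was 1.84, 2.58 and 2.66 in naive libraries, 1.04, 0.768 and 1.35 in effector, 0.872, 1.55 and 1.47 on day 4 and 0.465, 0.462 and 0.707 on day 14. The 3 naive libraries held the highest ratios, the 3 day 14 libraries the lowest, and effector and day 4 overlapped. The ratio combines genes chosen with earlier results known and is given as a description of RNA, not of protein. The sum relative to Max was 0.421 ± 0.0266 in naive and 1.12 ± 0.160 on day 14.

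The make-up of these 5 antagonists changed as well. Mnt made up 36.0% ± 2.84 of their summed RNA in naive cells, 29.6% ± 6.83 in effector, 18.9% ± 4.93 on day 4 and 14.6% ± 0.342 on day 14 (SD, n = 3). Mxd1 went the other way, from 14.9% ± 2.40 and 10.5% ± 2.52 in naive and effector cells to 29.2% ± 4.21 and 34.1% ± 3.65 on day 4 and day 14. Mxd4 was the largest share in effector (47.2% ± 2.84) and day 4 cells (39.2% ± 1.83). It was level with Mnt in naive cells (38.3% ± 2.43) and with Mxd1 on day 14 (34.5% ± 2.28).

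**Figure D4:**
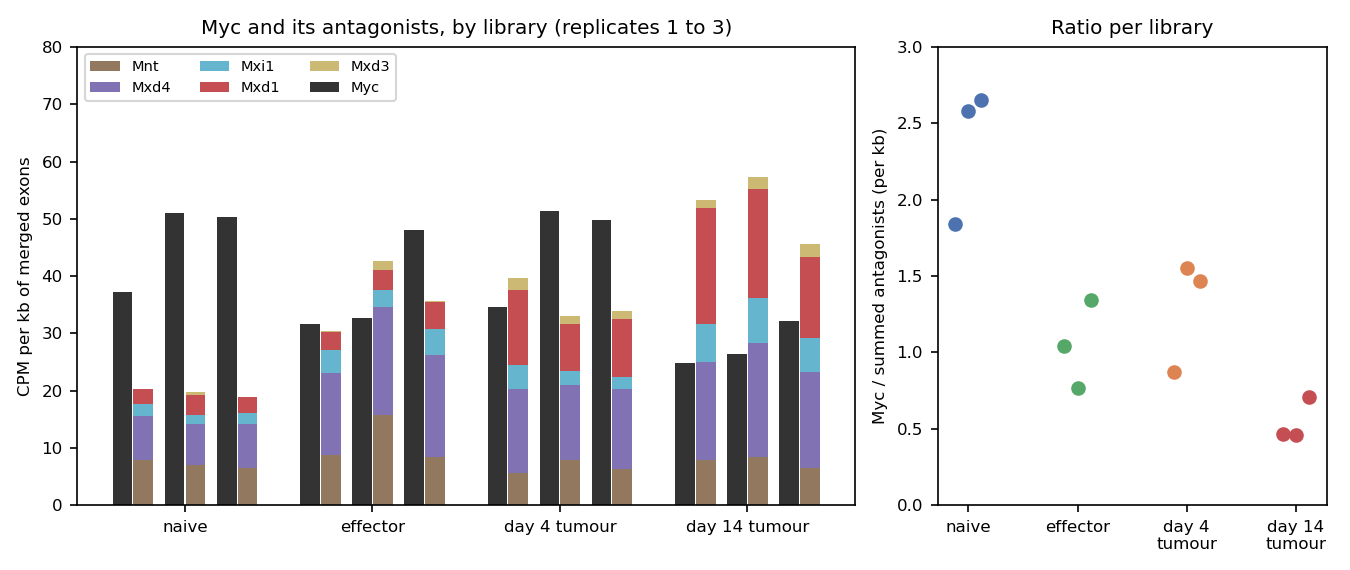
Left, CPM per kb of merged exons of Myc (dark bars) and of the 5 antagonists stacked, per library; right, the ratio of Myc to the antagonist sum in each library. The ratio lies between 1.84 and 2.66 in naive libraries and between 0.462 and 0.707 on day 14. Mga is not in the sum.

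Among themselves the tested genes fell into patterns that are described here as Pearson correlations of log2 CPM over the 12 libraries, which share group and depth. Mxi1 and Mxd4 were the most alike (r = 0.814), followed by Mxd1 and Mxd3 (0.781), and Mxi1 was the most unlike Myc (-0.792). Mnt was close to none of the other antagonists (-0.307 to 0.367). Over 6752 other protein-coding genes with a mean log2 CPM of at least 4, those most like Myc were Tespa1 (r = 0.869), a T cell receptor signalling adaptor, Fam111a (0.869) and Dapl1 (0.862). Tespa1 averaged 63.3, 30.2, 46.3 and 14.3 CPM in naive, effector, day 4 and day 14 cells. Those most like Mxd1 were Dgat1 (0.986), which makes triglyceride, Fam53c (0.983) and Ube2a (0.983), and Dgat1 averaged 20.3, 37.8, 213 and 474 CPM. Those most like Mxi1 were Pde4d (0.932), a cyclic AMP phosphodiesterase, Ccdc186 (0.926) and Tmem222 (0.925). Those most like Mxd3 were Ckap2l (0.955), Aspm (0.939) and Ccna2 (0.937), 3 genes of mitosis or the cell cycle. Mxd3 held only 1 to 45 counts in naive and effector libraries and passed the filter on low counts only through the tumour libraries, where it was high. Its correlations, also the one with Mxd1, are not independent of that filter, and many genes that are high in tumour libraries could resemble it.

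The 4 genes of the wider network were looked at next. Mga, which encodes a large MAX-binding repressor, held 338, 296 and 347 CPM in naive, 339, 339 and 334 in effector, 197, 199.98 and 187 on day 4 and 186, 188 and 173 on day 14. The 6 tumour libraries were all lower than the 6 others. Against naive the log2 fold change was -0.75 on day 4 (SE 0.08, edgeR adjusted p = 5.72e-07) and -0.85 on day 14 (SE 0.08, edgeR adjusted p = 1.43e-07). Day 14 and day 4 differed by -0.10 (SE 0.08), which was not called (edgeR adjusted p = 0.515). Mycl held 0 to 12 counts and Mlxipl 0 to 8 counts a library, and neither was tested.

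Mlxip, which encodes the glucose-sensing partner of MLX, held 174, 187 and 184 CPM in naive, 142, 158 and 167 in effector, 122, 122 and 133 on day 4 and 169.7, 157 and 162 on day 14. It was lower on day 4 than naive by -0.53 (SE 0.08, edgeR adjusted p = 4.12e-05) and higher on day 14 than day 4 by 0.38 (SE 0.08, edgeR adjusted p = 0.00666). Txnip, a target of MLXIP and MLX that restrains glucose uptake, held 232, 226 and 256 CPM in naive and 433, 338 and 285 in effector cells. It then fell to 49.1, 49.8 and 48.0 CPM on day 4, and stood at 85.0, 84.5 and 64.4 on day 14. The log2 fold changes were 0.56 for effector against naive (SE 0.13, edgeR adjusted p = 0.00585), -2.28 for day 4 against naive (SE 0.14, edgeR adjusted p = 1.79e-09) and 0.67 for day 14 against day 4 (SE 0.14, edgeR adjusted p = 0.00397). Without effector replicate 1, the highest of its group, the first was 0.35 and not called (edgeR adjusted p = 0.0507). Arrdc4, the other target listed, ran from 1.03 to 5.25 CPM and was called lower in both tumour groups against effector cells (-0.98 in each, edgeR adjusted p = 0.0446 in each), calls that 16 and 15 of the 19 alternatives ended. Mlx itself passed the same test in none of these comparisons.

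A list of 41 genes known to respond to MYC (nucleolar, ribosome-building, metabolic and transport genes), all of them tested, was counted in the same comparisons. In effector against naive cells 0 were called higher and 25 lower, where 14.6% and 10.4% of all genes were (edgeR gave 1 higher at an unadjusted p under 0.05, and DESeq2 gave 0), with a median log2 fold change of -0.44 beside 0.01 for all genes, and without effector replicate 2 the lower count was 17. The spermidine synthase gene Srm (-1.02), the RNA polymerase I subunit gene Polr1b (-0.997) and the amino acid transporter gene Slc7a5 (-0.97) had the largest falls among those with adequate signal (a mean log2 CPM of at least 4, here and below). The Slc7a5 call was lost when naive replicate 2 or effector replicate 1 was left out and in the fit of the 2 groups alone, with edgeR adjusted p = 0.0851, 0.0657 and 0.0559 in turn. On day 4 against naive 29 were higher and 2 lower, beside 33.4% and 28.8% of all genes (median 0.61 beside 0.03), and Myc differed by -0.03. On day 14 against naive 20 were higher and 4 lower, beside 33.6% and 28.5% (median 0.38 beside 0.04), with Myc called lower. The 4 lower became 2 without naive replicate 2 or 3 or day 14 replicate 1.

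Odc1, for the rate-limiting enzyme of polyamine synthesis, led the gains over naive: 65.7, 56.2 and 50.1 CPM in naive, 58.7, 86.5 and 65.3 in effector, 1870, 1201 and 1175 on day 4 and 1208, 1322 and 1278 on day 14. All tumour libraries were far above the rest. Its log2 fold change over naive was 4.63 on day 4 (SE 0.22, edgeR adjusted p = 5.06e-09) and 4.47 on day 14 (SE 0.22, edgeR adjusted p = 6.76e-09). The transferrin receptor gene Tfrc followed, at 2.37 and 2.04, then the lactate dehydrogenase gene Ldha at 1.89 on day 4 and the amino acid transporter chain gene Slc3a2 at 1.97 on day 14. Ccnd2, a G1 cyclin, had the largest fall among the listed genes with adequate signal, at -1.34 and -1.35 (edgeR adjusted p = 0.000411 and 0.000382).

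Against effector cells 37 of the 41 were higher and 2 lower on day 4, and 33 higher and 3 lower on day 14 (medians 1.12 and 0.82, beside 0.06 and 0.06 for all genes). Of all genes 32.7% were called higher and 29.2% lower on day 4, and 32.6% and 28.4% on day 14. The few lower calls were unstable, going to 0 or 1 when single libraries were left out: on day 4 effector replicate 1 or 3, or any 1 naive library, any 1 day 4 library or day 14 replicate 1 or 2, and on day 14 effector replicate 3 or any 1 day 14 library. Between the tumour days 1 was higher (Slc3a2, 0.74, edgeR adjusted p = 7.11e-05) and 6 lower, beside 7.17% and 4.91% of all genes, with a median of -0.30 beside -0.0039. DESeq2 called 10 lower, the fit of the 2 tumour groups alone 13, the fit with no filter 15, and the fit without effector replicate 2 called 11. Npm1, a nucleolar chaperone gene, fell by 0.62 (edgeR adjusted p = 0.000712), from 4080, 3303 and 3356 CPM to 2120, 2379 and 2472. Dkc1, of the pseudouridine synthase complex, fell by 0.53 (edgeR adjusted p = 0.00191), and the mitochondrial serine enzyme gene Shmt2 by 0.49 (edgeR adjusted p = 0.00336).

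**Figure D5:**
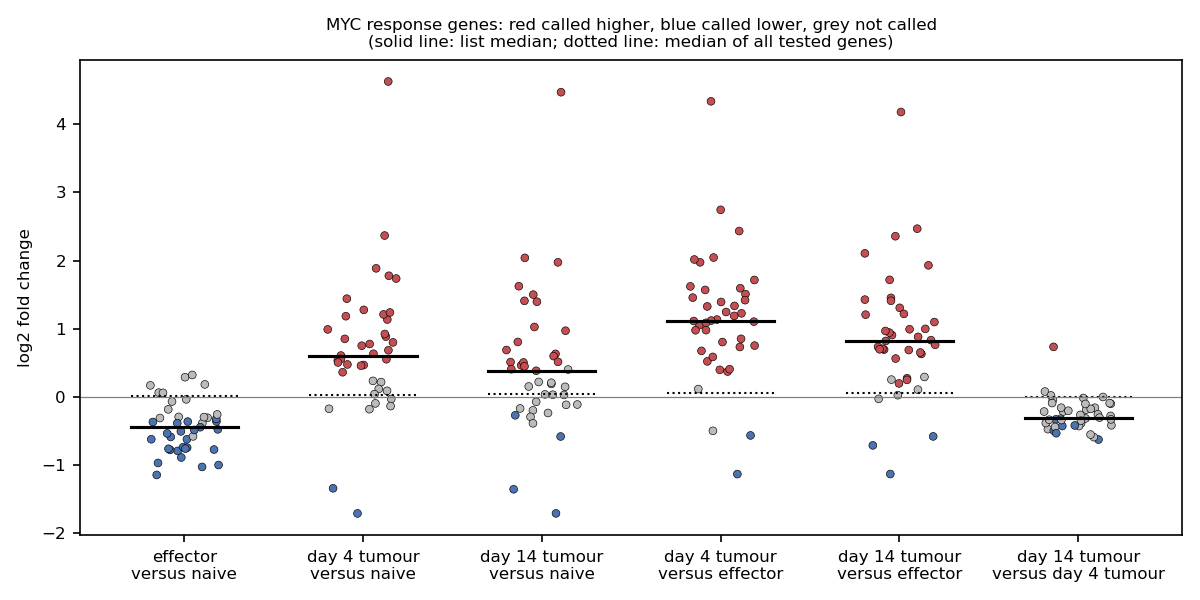
Log2 fold changes of the 41 MYC response genes in the 6 comparisons; points are genes (red called higher, blue called lower, grey not called), the solid line is the list's median and the dotted line the median of all tested genes. The list median is -0.44 for effector against naive, 1.12 for day 4 against effector and -0.30 for day 14 against day 4.

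Of 10 genes known to be repressed by MYC, 9 were tested. Higher and lower calls numbered 3 and 1 in effector, 6 and 2 on day 4 and 6 and 2 on day 14, each against naive, with medians of 1.21, 2.70 and 2.56. Of the genes called higher, only Cdkn1b in effector cells and only Cdkn1a and Ndrg1 on either tumour day had adequate signal. The others lay under that limit, so the counts and medians rest largely on scarce genes. Of all genes 14.6% and 10.4%, 33.4% and 28.8%, and 33.6% and 28.5% were called in the same order, with medians of 0.01, 0.03 and 0.04. Between the tumour days there were 3 higher, all under the signal limit, and 1 lower, where 7.17% and 4.91% of all genes were. These went to 0 or 1 higher without any 1 of the day 4 or day 14 libraries, and to 0 lower without day 4 replicate 1 or day 14 replicate 2 or 3, but 2 lower without naive replicate 1 or effector replicate 1 or 2. Cdkn1a, the p21 cell cycle inhibitor gene, had 2, 5 and 3 counts in naive libraries, and its levels were 0.575, 25.0 and 2.71 CPM in effector, 99.8, 121 and 157 on day 4 and 697, 535 and 352 on day 14. The high effector value was again replicate 2. Day 14 exceeded effector cells by a log2 fold change of 5.85 (SE 0.97, edgeR adjusted p = 0.000834), or 8.35 without that library. Cdkn1a passed the filter on low counts only through the tumour libraries, where it was high. Its level was low in effector replicates 1 and 3, so the size of these fold changes is uncertain. Ndrg1 rose over naive by 2.70 on day 4 (SE 0.35, edgeR adjusted p = 3.00e-05) and by 1.33 on day 14 (SE 0.34, edgeR adjusted p = 0.00498). Cdkn1b, the p27 inhibitor gene, went against them: it rose by 1.21 in effector cells (SE 0.12, edgeR adjusted p = 2.29e-06) and was lower than naive by -0.88 on day 4 and by -0.57 on day 14 (edgeR adjusted p = 6.73e-06 and 0.000501). The other gene called lower on both days was Klf2, for a factor that keeps T cells quiescent, at -5.15 and -4.05 (edgeR adjusted p = 5.88e-10 and 3.25e-09), which lies under the signal limit and is named after its values were seen.

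The repressing machinery that MXD and MNT proteins recruit was counted last. Of 12 SIN3 and NCOR corepressor genes 11 were tested. Against naive, 1 was higher and 2 lower in effector, 5 and 2 on day 4 and 6 and 3 on day 14, and between the tumour days 1 was higher and 0 lower (edgeR gave 1 lower at an unadjusted p under 0.05, and DESeq2 1). The shares of all genes called higher and lower were 14.6% and 10.4%, 33.4% and 28.8%, 33.6% and 28.5%, and 7.17% and 4.91% in the same order, so most of these counts lie near the background. The list medians were 0.06, 0.25, 0.37 and -0.05, beside 0.01, 0.03, 0.04 and -0.0039. The 3 lower on day 14 became 1 with RLE size factors, with no filter, in the fit of the 2 groups alone, and without naive replicate 3, day 4 replicate 1 or day 14 replicate 1 or 2, and without day 14 replicate 2 the 1 gene between the tumour days became 0. Sap30, for a SIN3 complex subunit, rose most over naive, by 2.33 on day 4 and 2.96 on day 14 (edgeR adjusted p = 9.94e-07 and 6.80e-08), from 1.33 to 2.22 CPM in naive to 8.47 to 10.6 and 13.4 to 15.8. It lies under the signal limit and is named after its values were seen. Among those with adequate signal the deacetylase gene Hdac1 rose most, by 1.18 on day 4 (SE 0.08, edgeR adjusted p = 1.80e-09) and 0.98 on day 14 (SE 0.08, edgeR adjusted p = 1.68e-08), with 188 to 206 CPM in naive, 434 to 476 on day 4 and 381 to 409.8 on day 14. The histone-binding subunit gene Rbbp7 rose by 0.97 and 0.83. The scaffold gene Sin3a, to which MXD proteins bind directly, was lower on both days, at -0.29 and -0.43 (edgeR adjusted p = 0.00547 and 0.000254), and so was Ncor1, at -0.35 and -0.19 (edgeR adjusted p = 0.000392 and 0.0292). The day 14 call of Ncor1 ended in 9 of the 19 alternatives, with a highest adjusted p of 0.147.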

How the data were processed

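Poly(A) RNA was amplified as cDNA and made into libraries by transposase tagging, per the labels' protocols. The authors deposited read counts per gene for each library. Per the submitters' processing notes, fastp 0.19.6 and STAR 2.6.1b were used with GRCm38. The annotation release is not given in the sources used here. Between 50.1% and 50.2% of stranded counts fell in the second strand column, so the deposited unstranded counts were used, and overlapping genes cannot be told apart. Reads in the 4 lines that name no gene, such as the 20.7% to 30.2% outside genes, did not enter library sizes. Of 55401 identifiers, 55141 matched GENCODE M21, which gave symbols, coordinates and exon lengths.

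edgeR 4.0.16 (R 4.3.3) was run once on all 12 libraries: low genes filtered by group, TMM factors, robust quasi-likelihood fit with 8 residual degrees of freedom, 6 contrasts, and Benjamini-Hochberg adjustment over 16426 genes, called at an adjusted p under 0.05. Alternatives were other scaling, no filter, DESeq2 1.42.0, a replicate block, the compared groups alone, a 2-fold minimum and leaving out each library. The 9 members and 7 gene lists were chosen with earlier results of these data known. Named from each list were up to 3 called genes per direction with the largest change and a mean log2 CPM of at least 4, all 4 genes of the wider network, and Arrdc4 because its list has 2 genes. Klf2 and Sap30 lie under that signal limit and were named as well, after their values were seen. No 2 libraries were identical.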

Additional observations from a re-analysis of the deposited data

How the results depend on the processing

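In all 19 alternatives, the called rises of Mxd1 and Mxi1 over naive on day 14, of Mxd1 on day 4 and of Mxd4 and Mxi1 in effector cells kept their direction and call. Leaving out 1 library at a time gave, for members called higher, 2 to 3 in effector against naive, 3 to 5 in day 4 and 3 to 4 in day 14 against naive, 2 to 3 in both tumour groups against effector, and 1 to 3 between the tumour days. For members called lower it gave 0 to 3 in day 4 against effector, 0 to 1 in day 14 against effector and 0 to 2 between the tumour days, and for all genes between the tumour days 1283 to 2206. The number that differed over the 4 groups ran from 4 to 7. Fewer libraries were fitted each time. A 2-fold minimum left 2 members higher in day 4 against naive, 1 higher in day 4 against effector, in day 14 against effector and between the tumour days, and 0 lower in day 14 against naive, in day 4 against effector and between the tumour days. It left 1658, 6424, 6359, 6408, 6197 and 732 genes called in the 6 comparisons (effector, day 4 and day 14 against naive, day 4 and day 14 against effector, day 14 against day 4). With no filter 1 member was lower in effector against naive, 1 in day 4 against effector, 2 in day 14 against effector and 1 between the tumour days, and the fit of the compared groups alone also gave 1 lower there. Day 4 against effector had 1 lower with RLE size factors, total counts and DESeq2, and day 14 against naive 2 lower with total counts. Other causes of these changes were not tested. RLE size factors moved the median of all genes in both tumour groups against effector to 0.11.

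The small, uncalled differences changed sign. Day 4 against naive Myc was 0.0064 with RLE size factors and 0.0061 with DESeq2, and ran from -0.154 to 0.150 with 1 library left out. With 1 library left out, Mnt there ran from -0.230 to 0.0253. Day 14 against naive Max was 0.0253 with RLE size factors, 0.0254 with DESeq2, 0.018 with no filter, and -0.0256 to 0.0252 with 1 library left out. In the same way Max ran from -0.0709 to 0.00542 in effector against naive and from -0.0128 to 0.0736 in day 14 against effector, and Mlx from -0.193 to 0.0123 in day 4 against effector. Mxd3 in effector against naive ran from -0.96 (without effector replicate 2) to 3.21 (without naive replicate 2).

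The replicate numbers did not pair the libraries: over 18 same-number pairs the correlation of deviations from the group means was -0.0884 to 0.102, with 1 pair over 0.1, and 4 of 12 libraries were most like one with their own number. With the number as a block, 2 members were lower in day 14 against effector (Myc at -0.42, adjusted p = 0.00652, and Mnt at -0.49, adjusted p = 0.0231), 3 were higher in effector against naive (Mnt added, at 0.57, adjusted p = 0.0261) and in day 14 against effector (Mxd3 added, at 2.16, adjusted p = 0.0493), and 7 differed over the 4 groups, while the other member counts did not change. Depth limits Mycn, Mycl, Mlxipl and Mxd3, whose low values rest on few reads.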

Other observations

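Genes that act on MYC from outside the network were counted as well. Of 16 genes for enzymes that set MYC protein stability, all tested, 4 were higher and 7 lower on day 4 and again 4 and 7 on day 14, each against naive (33.4% and 28.8% of all genes, and 33.6% and 28.5%). The largest change was in Usp28, which encodes a deubiquitinase that stabilises MYC: 187, 192 and 188 CPM in naive libraries, 114, 83.9 and 69.1 in effector, 17.4, 18.3 and 20.3 on day 4, and 6.93, 8.52 and 7.75 on day 14. The 4 groups did not overlap at any step. Its log2 fold change against naive was -1.09 in effector (SE 0.14, edgeR adjusted p = 3.75e-05), -3.34 on day 4 (SE 0.15, edgeR adjusted p = 4.25e-11) and -4.61 on day 14 (SE 0.17, edgeR adjusted p = 3.71e-12), and day 14 was below day 4 by -1.27 (SE 0.16, edgeR adjusted p = 7.11e-05). Skp2, for a ubiquitin ligase subunit that targets MYC and p27, rose by 1.46 and 1.37 (edgeR adjusted p = 4.30e-07 and 9.11e-07). Ppp2r5a, for a phosphatase subunit, fell by 1.32 and 1.40, and Trpc4ap, for a ubiquitin ligase adaptor, was higher in effector cells by 0.54 but fell by 1.18 and 1.06 in tumours.

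Of 16 cofactor genes of MYC, 7 were higher and 4 lower on day 4 and 8 and 4 on day 14, against naive, beside the same 33.4% and 28.8%, and 33.6% and 28.5%, of all genes. The ATPase gene Ruvbl1 held 41.6, 55.04 and 55.2 CPM in naive, 47.7, 44.6 and 47.7 in effector, 159, 143 and 125 on day 4 and 87.6, 92.7 and 95.4 on day 14, rising by 1.49 and 0.86 over naive (edgeR adjusted p = 1.61e-08 and 8.25e-06) and falling by 0.63 between the tumour days (edgeR adjusted p = 0.00143). The acetyltransferase gene Kat2a was lower than naive in all 3 other groups, at -0.66, -0.52 and -0.84 (edgeR adjusted p = 0.000659, 0.00114 and 1.23e-05 in effector, day 4 and day 14).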
